A study of Mus musculus with 20 samples.

Results

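S100 genes encode small calcium-binding proteins, and the 10 of them examined here were S100a1, S100a3, S100a4, S100a6, S100a8, S100a9, S100a10, S100a11, S100a13 and S100b. They were chosen by name: every non-control probe of the array whose gene name equals 1 of these symbols was taken, which gave 10 probes, 1 for each gene, of 41174 probes on the array. All 10 were among the 26063 probes that were tested because at least 10 of the 20 arrays showed them well above background. RNA was taken from whole tracheas of C57/Bl6 mice aged 4 months per the sample labels, and every sample was run in 1 colour on its own Agilent mouse oligonucleotide array. The design asked how loss of Myd88, the adaptor protein that carries signals from Toll-like and interleukin-1 receptors, changes the uninjured trachea and the trachea under repair. The 4 groups of 5 arrays were wild-type control, Myd88KO control, wild-type 3 days after 2% polidocanol, and Myd88KO 3 days after 2% polidocanol, a detergent that strips the airway epithelium. Knockout mice were bred from knockout parents after back-crossing to C57/Bl6JOlaHsd, whereas wild-type mice came from a separate colony of that substrain, so genotype and colony cannot be told apart. The labels do not give the sex of a sample.

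S100 proteins carry EF-hand motifs, usually pair with a copy of themselves or with another S100 protein, and expose a binding surface when calcium is bound. S100a8 and S100a9 together form calprotectin, which neutrophils and freshly recruited monocytes hold in large amounts and release at sites of inflammation, where it binds metals and acts on Tlr4 and Ager. Other members belong to resident cells: S100a4, S100a6, S100a10 and S100a11 are found in fibroblasts, epithelium and macrophages, where they bind annexins and the cytoskeleton, while S100a1 is abundant in striated muscle and S100b in glia and fat.

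Signals are given as log2 intensity relative to the 75th percentile of the same array, so 0 is the brightness of the probe at that percentile, and a difference is always between groups for 1 probe. Because probes differ in how brightly they bind, the level of 1 member is not set against that of another. The share of spots well above background was 57.5% to 67.8% over the 20 arrays. Each array number marks a slide that held 1 array of every group. Slides 1 and 5 were scanned on 1 day, and slides 2, 3 and 4 on another. The Myd88 probe gave 1.94 to 2.28 in wild-type control arrays and 1.60 to 2.04 in Myd88KO control arrays, which overlap. In injured arrays it gave 2.36 to 2.80 in wild-type and 1.54 to 2.09 in Myd88KO, without overlap, and whether the probe lies in the deleted part of the gene is not given in the sources used here. Wild-type control array 3 stood apart in other S100 genes: S100a7a was at -0.20 there and well above background, against -6.48 or lower on the other wild-type control arrays. After injury in wild-type, values without that array are given for S100a1, S100a3, S100a4, S100a8, S100a9, S100b, S100a5, S100a14, S100a16 and S100g. Elsewhere the array was kept, apart from ranges with 1 array left out.

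By the positions in the files, whose genome build is not stated, the probes of S100a1, S100a13, S100a3, S100a4, S100a6, S100a8 and S100a9 lie on chromosome 3 between 90642309 and 90822924, and those of S100a11 and S100a10 lie on the same chromosome between 93627811 and 93666290. The S100b probe lies on chromosome 10 at 75915615 to 75915674. The S100a13 probe spans 8007 bases of the genome, and the others span 60 or 61. RefSeq sequence before the gene start, on GRCm38.p6, was found for 9 of the 10 genes, S100a10 being the other one.

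The 250 bases before the start are printed for S100a8 and S100a9, whose signals moved together, and for S100a4, the only member that passed the threshold after injury in wild-type. Capitals mark letters of 4 motifs that were looked for on both strands. The TATA box was spelled TATAAA, and the site of the C/EBP factors, which are active in myeloid cells, was spelled TTGCNNAA. The GC box was spelled GGGCGG. An ETS-family motif was spelled GAGGAA, which reads TTCCTC where it lies on the opposite strand, and other spellings of ETS sites were not looked for.
S100a8, chr3:90668821-90669070, plus strand: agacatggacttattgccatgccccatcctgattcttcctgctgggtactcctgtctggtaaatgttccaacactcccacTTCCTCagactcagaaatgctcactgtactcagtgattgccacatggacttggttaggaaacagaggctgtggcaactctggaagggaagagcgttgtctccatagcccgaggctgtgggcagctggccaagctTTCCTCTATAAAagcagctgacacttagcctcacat
S100a9, chr3:90695722-90695971, minus strand: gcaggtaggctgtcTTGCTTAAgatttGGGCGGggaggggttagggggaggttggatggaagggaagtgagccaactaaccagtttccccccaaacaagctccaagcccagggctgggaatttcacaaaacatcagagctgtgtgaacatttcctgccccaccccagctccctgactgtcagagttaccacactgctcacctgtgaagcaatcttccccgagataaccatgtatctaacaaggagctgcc
S100a4, chr3:90603520-90603769, plus strand: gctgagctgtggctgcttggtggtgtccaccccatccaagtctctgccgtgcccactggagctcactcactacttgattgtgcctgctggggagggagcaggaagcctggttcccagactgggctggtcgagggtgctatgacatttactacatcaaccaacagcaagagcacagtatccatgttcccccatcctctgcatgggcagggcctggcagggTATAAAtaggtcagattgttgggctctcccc
Counted from the gene start, the TATA box began at position -30 of S100a8 and at -31 of S100a4. The S100a9 window held TTGCTTAA from position -236 and no TATA box. Of all 32851 promoter windows of this length, 12.4% held a TATA box, 9.56% the C/EBP motif, 32.7% a GC box and 23.3% the ETS motif as spelled. The AP-1 motif, spelled TGANTCA and held by 6.75% of windows, stood at 2 places before S100a11, and the STAT motif, spelled TTCNNNGAA (7.02%), and the NF-kB motif (7.25%) were in none of the members' windows. These are matches of letters only.

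S100a1 and S100a13 start head to head on opposite strands, so the windows before them share the 104 bases between the starts. They are printed, with the shared stretch in capitals, because both signals rose and fell together among arrays of the same group (r = 0.81). After injury in wild-type the directions were opposite, -0.42 for S100a1 and 0.25 for S100a13. S100b, on chromosome 10, had r = 0.91 with S100a1 and 0.81 with S100a13. A part of the shared stretch or of scan day in these signals was not tested.
S100a1, chr3:90514331-90514580, minus strand: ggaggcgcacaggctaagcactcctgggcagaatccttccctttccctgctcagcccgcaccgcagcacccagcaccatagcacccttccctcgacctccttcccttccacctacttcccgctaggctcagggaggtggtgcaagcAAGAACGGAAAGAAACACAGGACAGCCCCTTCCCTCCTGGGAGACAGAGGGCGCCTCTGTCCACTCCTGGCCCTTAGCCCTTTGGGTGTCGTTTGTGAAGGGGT
S100a13, chr3:90514185-90514434, plus strand: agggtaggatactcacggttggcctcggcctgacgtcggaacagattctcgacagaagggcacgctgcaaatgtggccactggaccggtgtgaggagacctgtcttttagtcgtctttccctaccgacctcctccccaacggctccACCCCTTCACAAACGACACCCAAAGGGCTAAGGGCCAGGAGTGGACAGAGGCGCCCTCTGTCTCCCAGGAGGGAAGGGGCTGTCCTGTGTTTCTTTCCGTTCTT

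Injury in wild-type tracheas raised the signal of S100a4 and of no other member at the threshold used, an adjusted p under 0.01 (limma, Benjamini-Hochberg over all tested probes). That is 1 of 10 members, beside 5.26% of all tested probes. At an unadjusted p under 0.05 there were 6 of 10 members, against 26.4% of all probes, and the groups did not overlap for 3 members (S100a4, S100a6 and S100a10), against 12.6% of all probes. The signal was higher after injury in 8 members and lower in S100a1 and S100b, with a median difference of 0.55 over the members and 0.00 over all probes. In Myd88KO tracheas, injury called 0 of 10 members, beside 0.376% of all probes. At an unadjusted p under 0.05 there were 4 members (19.5% of all probes), and all 10 had groups that overlapped (3.45% of all probes did not).

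Between genotypes no member was called. In uninjured tracheas 0 of 10 members passed, beside 0.384% of all probes. Of the 10, 2 had an unadjusted p under 0.05 (5.59% of all probes), and S100a9 alone had groups that did not overlap (2.51% of all probes). In injured tracheas 0 of 10 passed, beside 0.38% of all probes, although 4 had an unadjusted p under 0.05 (12.5% of all probes) and 9 of the 10 were lower in Myd88KO. No member had groups that did not overlap there (1.96% of all probes). The test of the difference between the injury responses called 0% of all probes, with a smallest adjusted p of 0.179, and no member had an unadjusted p under 0.05 (10.4% of all probes). These comparisons share groups, so their results are not independent of each other.

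**Figure D1:**
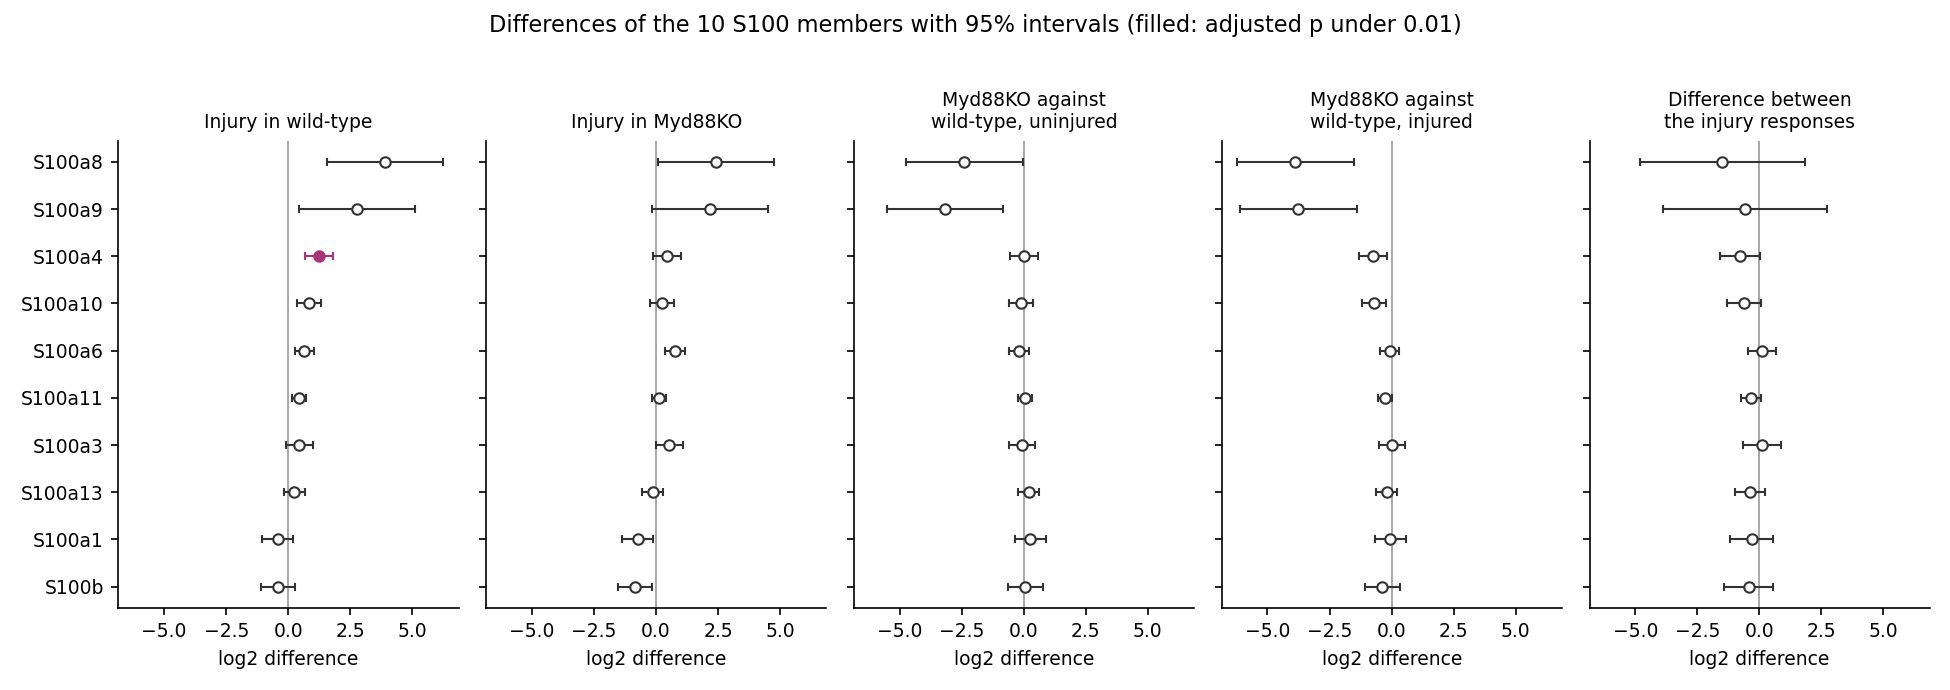
Log2 difference (x axis) of each of the 10 members (rows) in the 5 comparisons (panels), with 95% intervals from limma over 20 arrays; a filled point marks an adjusted p under 0.01. S100a4 after injury in wild-type is the single filled point, and the intervals of S100a8 and S100a9 are the widest in every panel.

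The neutrophil-type members, S100a8 and S100a9, had the largest differences and the largest spread. In wild-type control arrays 1 to 5, S100a8 signal was 1.16, -1.54, -3.09, -1.95 and -2.36, and in wild-type injured arrays it was 2.51, 0.68, 2.30, 1.09 and 5.15. The groups overlapped because control array 1 lay above injured arrays 2 and 4. On each of the 5 slides the injured array was higher, by 1.35 to 7.52. The mean was -1.55 ± 1.62 in control and 2.35 ± 1.75 in injured arrays (SD, n = 5 each), a 15.0-fold difference that missed the threshold (log2 difference 3.90, SE 1.12, adjusted p = 0.0269 by limma). With array weights, which give less weight to arrays that depart from their group, it was 4.03 and passed (adjusted p = 0.00899). Fewer cells of a type and less RNA per cell cannot be told apart in whole tissue.

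S100a9, the partner of S100a8 in calprotectin, gave 4.93, 1.97, 2.95, 1.55 and 1.14 in wild-type control arrays 1 to 5 and 5.54, 3.84, 5.73, 3.53 and 7.76 in wild-type injured arrays. The injured array was again the higher one on 5 of 5 slides, by 0.61 to 6.62, and control array 1 again lay among the injured arrays. The log2 difference was 2.77 (SE 1.12, adjusted p = 0.115 by limma). Without control array 1 the differences were 4.58 for S100a8 (adjusted p = 0.0155) and 3.38 for S100a9 (adjusted p = 0.0684). Without injured array 5 they were 3.20 (adjusted p = 0.0724) and 2.15 (adjusted p = 0.237), and without control array 3 they were 3.52 (adjusted p = 0.0598) and 2.88 (adjusted p = 0.130).

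Injured Myd88KO tracheas fell apart into high and low arrays. S100a8 signal was -2.24, 1.02, -3.59, 1.83 and -4.66 in arrays 1 to 5, and S100a9 signal was 0.95, 3.88, -0.66, 5.21 and -1.73. Arrays 2 and 4 lay within the range of injured wild-type tracheas for both genes, and arrays 1, 3 and 5 lay within or below the range of wild-type controls. The group SD was 2.84 for S100a8 and 2.95 for S100a9. With that spread, injury gave a log2 difference of 2.42 for S100a8 (SE 1.12, adjusted p = 0.242 by limma) and of 2.19 for S100a9 (SE 1.12, adjusted p = 0.292). Single arrays moved both values: they were 1.58 and 1.27 without injured Myd88KO array 4, and 3.20 and 3.01 without array 5. With array weights they were 3.54 (adjusted p = 0.0213) and 3.35 (adjusted p = 0.0301). The S100a8 spot was not well above background on injured Myd88KO array 5 or on Myd88KO control array 3.

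**Figure D2:**
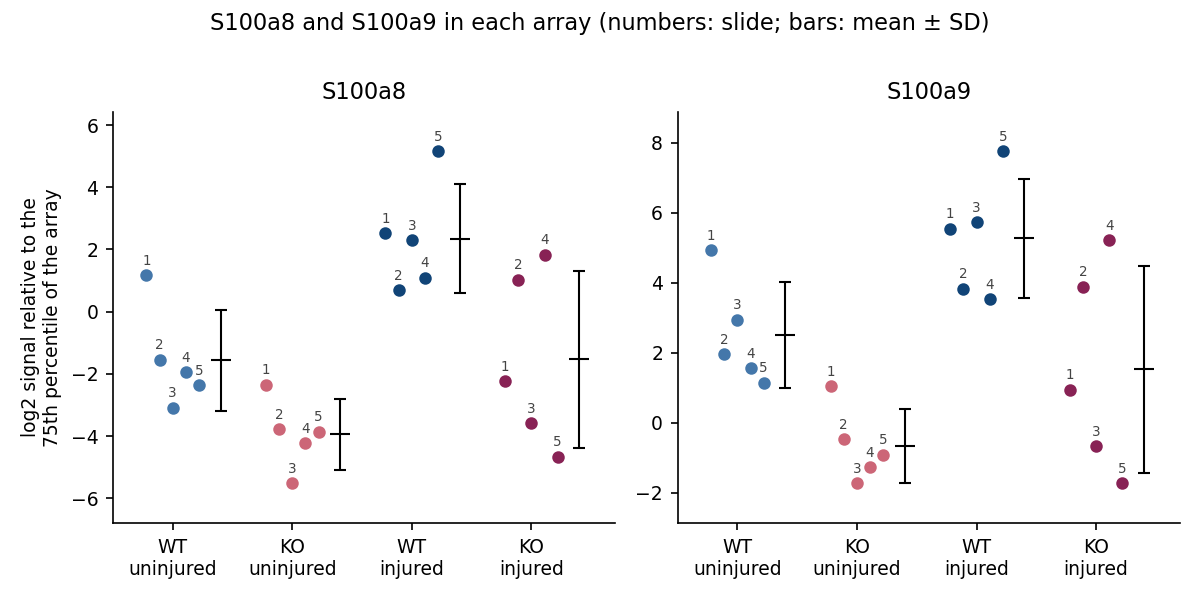
Log2 signal of S100a8 (left) and S100a9 (right) relative to the 75th percentile of the array (y axis) in each of 20 arrays; points carry the slide number, and bars give the mean and SD of 5 arrays. Injured Myd88KO arrays 2 and 4 lie with the injured wild-type arrays, and arrays 1, 3 and 5 lie at or below 0.95 for S100a9.

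Uninjured Myd88KO tracheas had low signals of both genes. S100a9 was at 1.05, -0.47, -1.72, -1.26 and -0.91 in Myd88KO control arrays 1 to 5, and each lay below the lowest wild-type control array, 1.14. The difference was -3.17 on the log2 scale, or 8.99-fold lower, with an unadjusted p of 0.0106 and an adjusted p of 0.492 by limma. S100a8 was at -2.34, -3.78, -5.52, -4.22 and -3.86, with a difference of -2.39 (adjusted p = 0.869 by limma). Without wild-type control array 1, the highest of its group, the differences were -2.56 for S100a9 and -1.71 for S100a8, and with normexp background correction that of S100a8 was -1.38. Within slides the Myd88KO control array was lower on 5 of 5 slides for both genes, with differences of -4.66 to -2.05 for S100a9 and of -3.51 to -1.50 for S100a8.

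In injured tracheas the mean of Myd88KO was lower by 3.87 for S100a8 (adjusted p = 0.139 by limma) and by 3.75 for S100a9 (adjusted p = 0.155). With 1 array left out these differences ran from -4.71 to -3.09 and from -4.67 to -2.94. The Myd88KO array was lower on 3 slides and higher on slides 2 and 4. Set against each other, the 2 injury responses differed by -1.48 for S100a8, with a 95% interval of -4.80 to 1.83, and -0.58 for S100a9, with an interval of -3.89 to 2.73. Both intervals held 0. With array weights the values were -0.49 and 0.082, and with 1 array left out they ran from -2.32 to -0.70 for S100a8 and from -1.50 to 0.23 for S100a9, whose direction is therefore not settled.

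Among the marker lists, S100a8 and S100a9 were most like the mean log2 signal of the neutrophil genes (r = 0.90 and 0.89, n = 20 arrays with each group's mean subtracted), given as a description with no test. Of 16 listed neutrophil genes 15 had a probe and 11 were tested, but the members of the list did not move as one. Mmp9, a metalloproteinase, and Lcn2, an iron-sequestering protein, were well above background on 5 of 5 wild-type control arrays and rose by 2.22 and 3.62 after injury in wild-type. Csf3r, the receptor for granulocyte colony-stimulating factor, and the formyl peptide receptors Fpr1 and Fpr2 were also called higher. Those 3 were well above background on 2, 1 and 1 of the 5 wild-type control arrays against 5 of 5 injured ones, so they passed the filter on dim probes mainly through injured arrays and their differences are not given. Cd177, a surface protein of neutrophils, went the other way, with -2.48 to -1.78 in wild-type control and -4.49 to -2.57 in wild-type injured arrays, without overlap (difference -1.05, adjusted p = 0.0721 by limma). Mpo, the myeloperoxidase gene, differed by 0.29 (adjusted p = 0.478). No listed neutrophil gene was called after injury in Myd88KO, where 0.376% of all tested probes were called, against 5.26% in wild-type. Lcn2 was called lower in injured Myd88KO than in injured wild-type, by 3.95 (adjusted p = 0.00381 by limma), beside 0.38% of all tested probes. It was well above background on 3 of 5 injured Myd88KO arrays, so the size of that difference rests partly on dim spots. The mean log2 signal of the 11 genes was -3.12 to -1.64 in wild-type control, -3.61 to -2.91 in Myd88KO control, -0.72 to 1.10 in wild-type injured and -3.56 to -0.06 in Myd88KO injured arrays. Csf3r, Fpr1 and Fpr2 are part of that mean and of the r values above, and so are Cxcr2 and Retnlg. Cxcr2 was well above background on 3 wild-type and 1 Myd88KO control arrays, and Retnlg on 2 and 2. Both were well above background on 5 of 5 injured wild-type arrays. The filter thus helped to set how far the mean separated the groups, and no conclusion is drawn from that. The summed signal of the 15 genes with a probe, in multiples of the 75th percentile, did not separate the groups: 340.2 to 590.5, 441.0 to 721.0, 418.8 to 538.5 and 372.7 to 693.1 in the same order, most of it from Ltf. Ltf, the lactoferrin gene, which serous gland cells also express, differed by -0.03 after injury in wild-type.

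Array by array, some of these genes were high on the same injured Myd88KO arrays as S100a8 and S100a9, and others were not. Csf3r signal was -4.89, -0.96, -4.42, -0.91 and -6.13 in injured Myd88KO arrays 1 to 5, and the spot was not well above background on arrays 1 and 5. Mmp8, a neutrophil collagenase, was well above background on 5 of 5 injured wild-type arrays, on injured Myd88KO arrays 2 and 4, and on no control array. Mmp9 was at -2.47, -0.07, -1.66, -0.13 and -2.95 on injured Myd88KO arrays 1 to 5. Retnlg was at 0.55 and 0.58 on arrays 2 and 4 and at -2.29 or lower on the others. Fpr1, Fpr2 and Cxcr2 were likewise highest on arrays 2 and 4. For Retnlg, Fpr1, Fpr2 and Cxcr2 some of the low spots were not well above background. Cd177 was at -4.84, -3.93, -3.81, -3.82 and -3.93 on injured Myd88KO arrays 1 to 5, Mpo at -4.70 to -3.87 and Ltf at 8.54 to 9.44, with arrays 2 and 4 not set apart from the rest. Elane and Ngp, genes of neutrophil precursors, were well above background on 0 of 20 arrays. The part that neutrophil number has in the S100a8 and S100a9 signals was not tested.

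The stromal or epithelial members had smaller differences and SDs of 0.13 to 0.57 within groups. S100a4, a marker of fibroblasts and macrophages that binds non-muscle myosin, gave 6.55, 6.47, 5.84, 5.73 and 6.61 in wild-type control arrays 1 to 5 and 8.20, 7.09, 7.29, 7.31 and 7.49 in wild-type injured arrays. The groups did not overlap, and the injured array was higher on 5 of 5 slides, by 0.62 to 1.65. S100a4 rose by 1.24 on the log2 scale, or 2.35-fold (SE 0.27, adjusted p = 0.00572 by limma).

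The S100a4 call depended on single arrays. Its adjusted p was 0.0187 without injured array 1, 0.0132 without injured array 5, 0.0116 without control array 2, 0.0150 without control array 3 and 0.0205 without control array 4. Over all arrays left out in turn the difference stayed between 1.05 and 1.33. In Myd88KO tracheas S100a4 gave 6.95, 5.79, 5.96, 6.03 and 6.59 before injury and 6.68, 7.40, 6.35, 6.87 and 6.30 after it, which overlap. The difference there was 0.46 (SE 0.27, adjusted p = 0.369), or 0.29 without injured array 2. That between the responses was -0.78, with a 95% interval of -1.58 to 0.03 and an adjusted p of 0.493, and it was -0.46 under quantile normalization. Between uninjured genotypes S100a4 differed by 0.02, a value that turned to -0.035 under quantile normalization.

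S100a10, the light chain that anchors annexin A2 at the membrane, was at 5.34, 4.63, 5.31, 4.67 and 5.21 in wild-type control arrays and at 6.09, 5.80, 5.83, 5.73 and 5.89 in wild-type injured arrays. These groups did not overlap either, and the injured arrays differed among themselves by only 0.13 (SD, n = 5). The difference of 0.84 (SE 0.23, adjusted p = 0.0218 by limma) missed the threshold. In Myd88KO injured arrays S100a10 was at 5.47, 5.74, 4.68, 5.16 and 4.71, so that array 2 alone reached the injured wild-type range. The Myd88KO array was lower than the wild-type one on 5 of 5 slides, with a mean difference of -0.71 and an adjusted p of 0.194.

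S100a6, also called calcyclin, had differences of like size in both genotypes. It was at 7.37, 7.21, 7.10, 6.83 and 7.39 in wild-type control arrays and at 7.73, 7.66, 8.13, 7.98 and 7.68 in wild-type injured arrays, without overlap. In Myd88KO it was at 7.47, 6.93, 6.94 and 6.67 in control arrays 1 to 4, since the software marked the spot of control array 5 as an outlier and it was left out, and at 8.30, 7.81, 7.40, 7.57 and 7.70 after injury. The differences were 0.65 in wild-type (SE 0.18, adjusted p = 0.0248 by limma) and 0.76 in Myd88KO (SE 0.19, adjusted p = 0.0403), neither past the threshold. The difference between them was 0.10, with a 95% interval of -0.46 to 0.66, and it turned to -0.048 when the outlier spot was kept.

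S100a11, which binds annexin A1, differed by 0.44 after injury in wild-type (SE 0.14, adjusted p = 0.0410 by limma) and by 0.11 in Myd88KO (SE 0.14, adjusted p = 0.713). Its signal ran from 4.66 to 5.08 in wild-type control and from 5.01 to 5.51 in wild-type injured arrays, so that injured array 1 overlapped the controls. S100a3, known from the hair follicle, stood at -0.21 on wild-type control array 3, against -1.74 to -0.87 on the other wild-type control arrays. Its difference after injury was 0.44 in wild-type (adjusted p = 0.294; 0.66 and 0.0747 without that array) and 0.54 in Myd88KO (adjusted p = 0.261). S100a13, which helps to export fibroblast growth factor 1 from cells, differed by 0.25 in wild-type (adjusted p = 0.474) and by -0.14 in Myd88KO (adjusted p = 0.764).

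**Figure D3:**
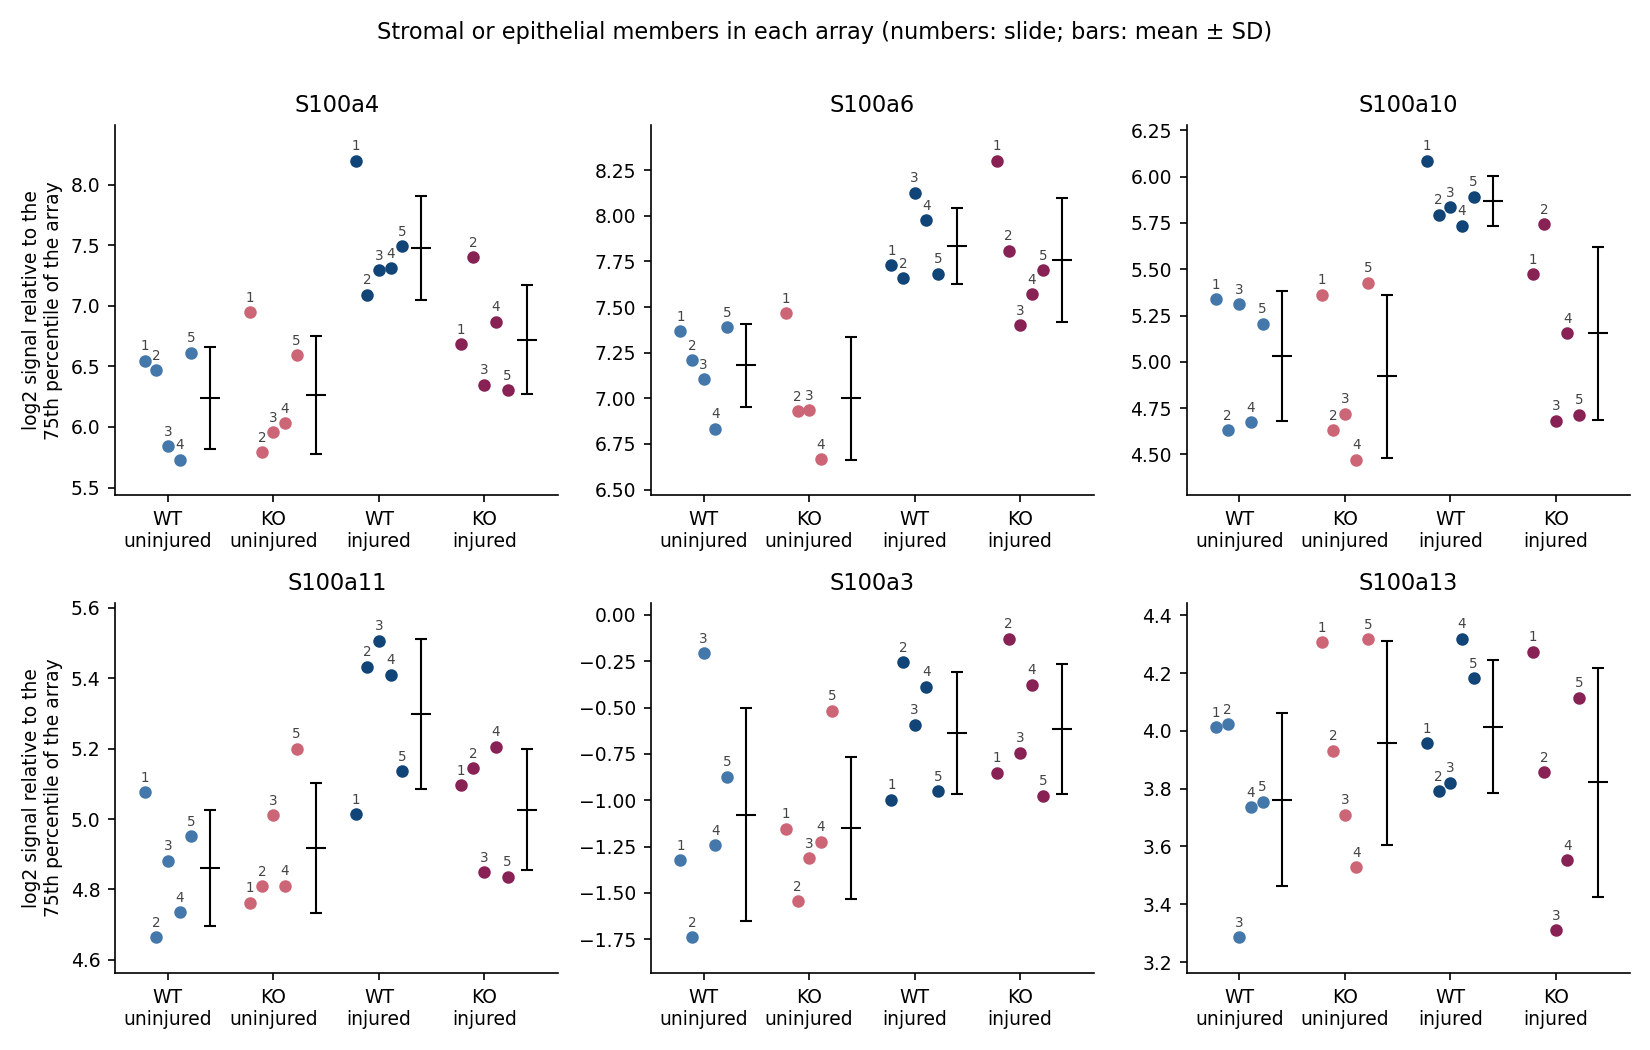
Log2 signal of the 6 stromal or epithelial members relative to the 75th percentile of the array (y axis, its own range in each panel) in each array; points carry the slide number, and bars give the mean and SD. Injured wild-type arrays lie above the wild-type controls without overlap for S100a4, S100a6 and S100a10, and the point missing for S100a6 is the outlier spot of Myd88KO control array 5.

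Fibroblast and macrophage markers were compared with all members. Within groups, the mean log2 signal of the fibroblast genes had r = 0.78 with S100a4 and 0.65 with S100a10, and also 0.82 with S100a8 and 0.76 with S100a9 (n = 20 arrays, no test). For the macrophage and monocyte genes the values were 0.77, 0.60, 0.86 and 0.82 in the same order. After injury in wild-type 2 of 8 fibroblast genes were called higher, Thy1 (1.08) and Vim (1.27), beside 5.26% of all tested probes. So were 4 of 9 macrophage and monocyte genes, Cd68 (3.27), Adgre1 (2.03), C1qa (1.78) and Csf1r (1.55). None of either list was called after injury in Myd88KO, beside 0.376% of all probes. The test of the difference between the injury responses called 0% of all probes. The summed fibroblast signal was 456.9 to 747.5 in wild-type control, 252.2 to 752.5 in Myd88KO control, 661.2 to 1161 in wild-type injured and 390.1 to 761.5 in Myd88KO injured arrays. The summed macrophage and monocyte signal was 316.8 to 559.6, 288.6 to 498.9, 348.0 to 546.2 and 294.4 to 472.2 in the same order, with Lyz2, the lysozyme gene, as its brightest member (difference -0.06 after injury in wild-type). The mean log2 signal of the macrophage and monocyte genes was 1.27 to 1.85, 1.14 to 1.90, 2.44 to 3.45 and 1.26 to 2.81, so that injured wild-type arrays lay above the wild-type controls without overlap. That of the fibroblast genes was 4.99 to 5.63, 4.49 to 5.73, 5.56 to 6.42 and 4.67 to 5.78, and the wild-type groups overlapped. The part of either cell type in the S100 signals was not tested.

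Of 10 airway epithelial genes, all tested, Scgb1a1, the secretoglobin of club cells, fell by 7.91 in wild-type and by 6.24 in Myd88KO after injury, and no other was called in any comparison. Of all tested probes, 5.26% were called after injury in wild-type and 0% to 0.384% in the other comparisons. The summed epithelial signal was 351.4 to 499.3 in wild-type control, 455.6 to 554.9 in Myd88KO control, 213.0 to 481.9 in wild-type injured and 265.9 to 478.7 in Myd88KO injured arrays. Over arrays with each group's mean subtracted, S100a11 was the member whose signal was most like the mean epithelial signal (r = 0.59, n = 20 arrays), and S100a4 and S100a8 ran the other way (r = -0.44 and -0.49). These are descriptions with no test, and the arrays of a slide share their scan.

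S100a1 and S100b were lower after injury in both genotypes, and neither passed the threshold in any comparison. S100b, a glial and adipose member, was at 4.52, 4.19, 4.27, 3.56 and 4.26 in Myd88KO control arrays 1 to 5 and at 3.99, 3.15, 2.77, 2.48 and 4.19 after injury. The injured array was lower on 5 of 5 slides, with differences of -1.50 to -0.077, and the groups overlapped. The difference was -0.84 (SE 0.33, adjusted p = 0.171 by limma) in Myd88KO and -0.41 (SE 0.33, adjusted p = 0.468) in wild-type. With array weights the Myd88KO difference was -1.17 with an adjusted p of 0.00733.

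S100a1, a regulator of calcium release in heart and skeletal muscle, was at 4.23, 4.17, 4.11, 3.76 and 4.22 in Myd88KO control and 3.78, 3.19, 2.76, 2.67 and 4.41 in Myd88KO injured arrays. Array 5 was the single slide on which the injured array was the higher one. The difference was -0.74 in Myd88KO (SE 0.30, adjusted p = 0.182 by limma; -1.06 and 0.00580 with array weights) and -0.42 in wild-type (SE 0.30, adjusted p = 0.394). On wild-type control array 3 both genes were low, S100a1 at 3.07 and S100b at 3.16, against 3.80 to 4.15 and 3.96 to 4.65 on the other wild-type control arrays. Without it the wild-type differences were -0.61 for S100a1 (adjusted p = 0.187) and -0.65 for S100b (adjusted p = 0.206). Over all arrays left out in turn they ran from -0.61 to -0.26 and from -0.65 to -0.25.

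**Figure D4:**
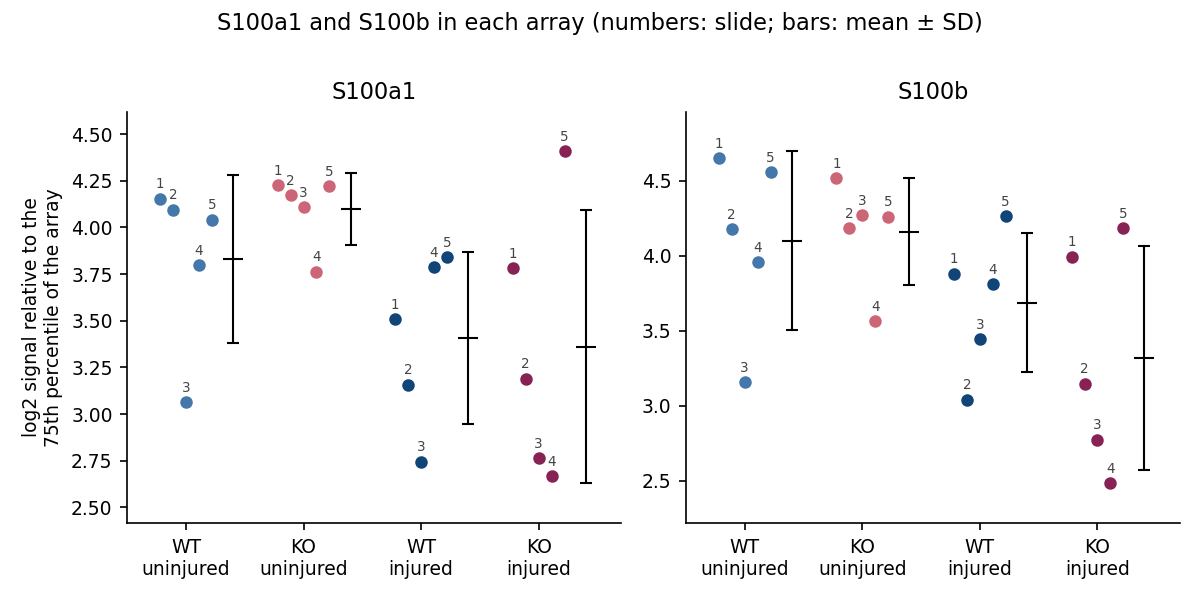
Log2 signal of S100a1 (left) and S100b (right) relative to the 75th percentile of the array (y axis) in each of 20 arrays; points carry the slide number, and bars give the mean and SD. Injured Myd88KO arrays 2, 3 and 4 lie between 2.48 and 3.19 in both panels, and arrays 1 and 5 lie nearer the controls. Arrays 1 and 5 were scanned on a different day from arrays 2, 3 and 4.

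Muscle and fat markers were lower after injury too, with no call, beside 5.26% of all tested probes in wild-type and 0.376% in Myd88KO. After injury 9 of 9 striated muscle genes were lower in wild-type (median difference -0.34) and in Myd88KO (-0.49), and 7 of 7 tested adipocyte genes were lower in wild-type (-0.29) and in Myd88KO (-0.78). The summed striated muscle signal was 900.4 to 1329 in wild-type control, 839.4 to 1530 in Myd88KO control, 559.9 to 1240 in wild-type injured and 454.0 to 1281 in Myd88KO injured arrays. The summed adipocyte signal was 300.7 to 570.3, 475.3 to 840.8, 175.2 to 553.4 and 251.8 to 716.5 in the same order.

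Within groups, S100a1 signal was most like the mean striated muscle signal (r = 0.67, n = 20 arrays) and the mean adipocyte signal (r = 0.64). S100b was most like the adipocyte signal (r = 0.67), with r = 0.48 for striated muscle, 0.40 for the Schwann and glial genes and 0.27 for cartilage. S100a13 had the highest r of all members with the adipocyte signal (0.71) and r = 0.57 with striated muscle, against 0.23 for the fibroblast and 0.020 for the epithelial genes, so its place among the stromal or epithelial members is a grouping by background only. Of 7 Schwann and glial genes 5 were tested, 0 were called, and Gfap and Cdh19 did not pass the filter on dim probes; their summed signal was 13.3 to 21.5 over all arrays. Of 8 cartilage genes 0 were called, with a summed signal of 25.4 to 58.3. Of all tested probes, 5.26% were called after injury in wild-type and 0% to 0.384% in the other comparisons. The part of muscle, fat or glia carried along with the trachea in these signals was not tested, and neither was that of scan day. The muscle genes Myh6 and Myh7 were called higher in Myd88KO, by 1.74 and 2.22 in uninjured and by 1.67 and 1.97 in injured tracheas. Of all tested probes, 0.384% and 0.38% were called in these comparisons. Myh6 was well above background on 3 of 5 arrays in each wild-type group and on 5 of 5 in each Myd88KO group. Its differences therefore rest partly on dim spots.

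The members fell into sets whose signals rose and fell together among arrays of the same group. Group means alone were subtracted, so slide and scan day remain in these r values, and their part was not tested. S100a8 and S100a9 were the closest pair (r = 0.95, Spearman's rho = 0.89, n = 20 arrays with each group's mean subtracted), and r was 0.92 without wild-type injured array 5 and Myd88KO injured array 4 and 0.89 over the 15 arrays outside the injured Myd88KO group. S100a1 and S100b had r = 0.91 (rho = 0.93), and S100a13 was like both of them, with r = 0.81 for each. S100a4 and S100a10 had r = 0.71 (rho = 0.67), and S100a3 and S100a11 had r = 0.62 (rho = 0.65). With S100a8, r was 0.60 for S100a4 and 0.14 for S100a6. The lowest value was r = -0.52, between S100a3 and S100b.

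**Figure D5:**
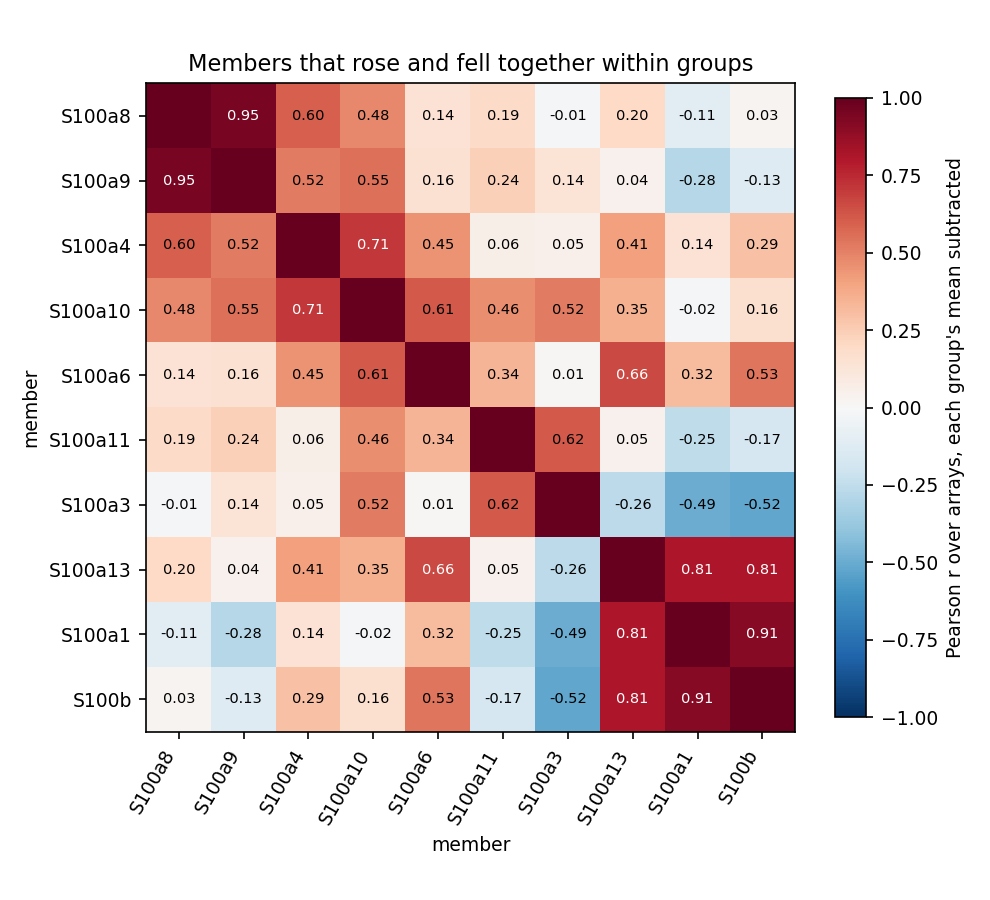
Pearson r between members (rows and columns) over 20 arrays, 19 for pairs with S100a6, after each group's mean was subtracted; red is positive and blue negative. S100a8 with S100a9 (0.95) and the set of S100a13, S100a1 and S100b (0.81 to 0.91) are the darkest blocks off the diagonal.

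Among all tested genes, those most like S100a8 by the same measure were Il1b, the cytokine interleukin-1 beta (r = 0.97), Clec4e, a receptor of myeloid cells (0.95), and Mefv, the pyrin gene (0.94). S100a9 led with Il1b (0.95) and Clec4e (0.93) as well, then Pilra (0.91). S100a1 was most like Fn3k (0.95), Mpc1 (0.95), a mitochondrial pyruvate carrier, and Ndufab1 (0.94), a mitochondrial protein, and S100b most like Ndufa1 (0.94), a subunit of respiratory complex I, Pnkd (0.93) and Rhou (0.93). S100a4 was most like Rgs10 (0.90), C1qtnf7 (0.89) and Mgp (0.89), the matrix Gla protein, and S100a3 most like Lgals3 (0.92), Myl7 (0.91) and Ecm1 (0.88). S100a6, S100a10, S100a11 and S100a13 had their closest genes at r = 0.92, 0.91, 0.88 and 0.96, namely Sf3a3, Vrk2, LOC670046 and LOC626573. The highest of 26063 probes is given for each member, so these values are high by choice.

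Partners and receptors of S100 proteins were taken as a list of 13 genes, all tested. After injury in wild-type 2 of the 13 were called, beside 5.26% of all tested probes: Cd33, a receptor reported to bind S100a9, rose by 1.53 (adjusted p = 0.00271 by limma), and Myh9, the non-muscle myosin heavy chain bound by S100a4, rose by 0.67 (adjusted p = 0.00507). None was called in the other comparisons, which called 0% to 0.384% of all probes. Anxa2, the partner of S100a10, differed by 0.67 in wild-type (adjusted p = 0.0627) and by 0.57 in Myd88KO (adjusted p = 0.175). Of the receptors for calprotectin, Tlr4 differed by -0.43 in wild-type (adjusted p = 0.327) and Ager by 0.38 (adjusted p = 0.781). The summed signal of the list was 186.6 to 256.3 in wild-type control and 271.6 to 309.8 in wild-type injured arrays. In Myd88KO the sum was 164.0 to 241.7 in control and 219.1 to 282.8 in injured arrays. The mean log2 signal of the 13 genes overlapped between the wild-type groups, at 1.135 to 1.409 in control and 1.147 to 1.610 after injury. Of the 13, 8 were higher and 5 lower after injury in wild-type, with a median difference of 0.15.

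Of 7 other S100-named genes, 6 had a probe, 5 were tested, and 0 were called in any of the 5 comparisons. Of all tested probes, 5.26% were called after injury in wild-type and 0% to 0.384% in the other comparisons. On wild-type control array 3 S100a14, an epithelial member, stood at 6.33 and S100a16 at 4.01, against 3.65 to 4.21 and 1.88 to 2.50 on the other wild-type control arrays. S100a14 differed by 0.34 after injury in wild-type with that array and by 0.81 without it (adjusted p = 0.620 and 0.0438 by limma), and by 0.79 in Myd88KO (adjusted p = 0.262). S100a16 differed by -0.16 in wild-type with the array and by 0.19 without it. S100a5 differed by -0.82 in wild-type, or -1.07 without the array, and by -1.28 in Myd88KO. S100g, the calbindin that carries calcium through epithelium, differed by -1.08 in wild-type, or -0.98 without the array, and by 0.012 in Myd88KO. The removal of that array for these genes was chosen after seeing the data. With that array in the group, the summed signal of these genes ran from 19.8 to 100.9 in wild-type control arrays.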

How the data were processed

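RNA from 20 whole tracheas, 5 in each of 4 groups, was measured on 1-colour arrays, and groups were taken from the sample titles. The authors deposited the scanner output of Agilent Feature Extraction (9.5.1.1), in which the intensity of each spot has its background subtracted and arrays are not scaled to one another; other deposited columns marked spots as outliers, saturated or well above background. The deposited value table holds the same intensity, rounded. The genome build of the files is not given in the sources used here. Control spots (1639 of 45018) and outlier spots were left out, spots of 1 probe were averaged, and log2 intensity was taken relative to the 75th percentile of the array. Probes well above background on at least 10 arrays were fitted over all 20 arrays with limma 3.58.1 (R 4.3.3, lmFit, contrasts, eBayes). For each comparison P values were adjusted over 26063 probes by Benjamini-Hochberg, with 0.01 as the threshold for a call. The script was tested on simulated data. The number of arrays limits the precision. The authors' one-way test, other normalizations, filters, blocks and the removal of each array were run as alternatives. Named genes were all 10 members, listed partners and markers where called or as direct partners, and the 3 genes most like each member over arrays with each group's mean subtracted. Members and lists were chosen with earlier results of these data known. Array number equals slide; between uninjured genotypes the deviations of same-numbered arrays correlated on every slide (r = 0.252 to 0.478), and in the other comparisons r ran from -0.218 to 0.459. RefSeq promoter windows on GRCm38.p6 were matched by symbol.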

Additional observations from a re-analysis of the deposited data

Results flagged for a closer look

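Of 40 sets of 4 or 5 arrays (10 members in 4 groups), 1 held a value far from the others: S100a1 on Myd88KO control array 4 stood at 3.76, against 4.11 to 4.23 on the other Myd88KO control arrays. Its gap to the nearest array was 0.743 of the whole range. Chance flags about 1 in 20 such sets.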

How the results depend on the processing

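The number of members called after injury in wild-type was 1 (S100a4) and stayed 1 with the replicate block (slide), as did the 0 of every other comparison in that paired fit, which changed no call. It was 2 with scan day as a block (S100a10 added), 4 with array weights (S100a4, S100a6, S100a8 and S100a10) and 0 under the methods' one-way test, where S100a4 had an adjusted p of 0.0235. It was 0 to 1 with 1 array left out, and 0 without wild-type injured array 1 or 5 or wild-type control array 2, 3 or 4. With array weights 2 members were called after injury in Myd88KO (S100a1 and S100b). The cause was not tested. Some directions turned, all of values that had not been called. Between injured genotypes, S100a1 turned to 0.029 and S100a6 to 0.18 under quantile normalization and S100a3 to -0.00013 under normexp; with 1 array left out S100a1 ran from -0.31 to 0.13, S100a3 from -0.10 to 0.12 and S100a6 from -0.21 to 0.011. Between uninjured genotypes, S100a4 turned to -0.035 and S100b to -0.0026 under quantile normalization, and to -0.015 and -0.028 with array weights; with 1 array left out S100a4 ran from -0.15 to 0.14, S100b from -0.18 to 0.21, S100a3 from -0.24 to 0.14, S100a10 from -0.24 to 0.0030 and S100a11 from -0.013 to 0.11. In the difference between responses, S100a6 turned to -0.048 with outlier spots kept and to -0.059 with array weights, and S100a9 to 0.082 with array weights; with 1 array left out S100a6 ran from -0.033 to 0.26, S100a9 from -1.50 to 0.23 and S100a3 from -0.12 to 0.26. Without wild-type control array 3, an alternative added after seeing the data, S100a16 turned from -0.16 to 0.19 after injury in wild-type. Of the members' other values, 558 under alternatives and 969 with 1 array left out kept direction and side of the threshold. S100a8 did not pass the filter that asks for signal above background on all arrays, so it has no value there.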
